A study of Mus musculus with 6 samples.

Results

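The genes described here are 46 genes of the machinery that licenses replication origins, unwinds DNA and copies it, taken by name from the 20475 rows of a table of gene expression in NIH3T3 cells. All 46 were found, and all 46 passed the filter on low values, which kept the 15025 rows that had 1 or more normalised reads in 2 or more libraries. The rule used their names only, but this list and the other gene lists below were chosen with earlier results of these data known. The counts of calls are therefore descriptions and not an independent test. They comprise 9 origin licensing genes, 7 MCM genes, 8 genes of helicase activation, 10 subunits of DNA polymerases alpha, delta and epsilon, 6 genes of the sliding clamp and its loader, and 6 genes of the single-strand binding protein RPA and of Okazaki fragment processing. NIH3T3 is an established mouse fibroblast line, here at passage 5 in medium with fetal bovine serum. The cells received PBS, the vehicle, or extracellular vesicles (EVs, membrane-bound particles shed by cells) resuspended in PBS, and total RNA was taken 48 h later. The EV donors were human: MCF10A, breast epithelial cells that form no tumours, and MDA-MB-231, breast cancer cells of the triple-negative class. Each of the 3 groups had 2 libraries, and all comparisons concern a single recipient line.

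Before S phase the origin recognition complex (ORC) marks origins, and CDC6 and CDT1 load the ring-shaped MCM2 to MCM7 helicase onto DNA around it. Kinases and loading factors then join CDC45 and the GINS complex to the ring, which begins to unwind DNA, and polymerases alpha, delta and epsilon copy the strands with the PCNA clamp holding them in place. Geminin binds CDT1 and blocks a second round of loading. Many of these genes are transcribed at the passage from G1 into S phase under E2F transcription factors, and they are low in resting fibroblasts.

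The deposited values are read counts adjusted by the authors to a common library size, called normalised reads below. The reads behind them totalled 22451173 to 29315530 per library, and 3 reads, the limit that a count of 0 allows, corresponded to 0.102 to 0.134 CPM (reads scaled to the library total), so every member lay far above the counting floor. No label says that the libraries of a group came from separate cultures, and p-values therefore refer only to the scatter among these libraries, which may be technical. Of 14 fibroblast marker genes, 13 had a mean of at least 1 CPM, the exception being Fap, and their summed level was 525600 and 525900 normalised reads with PBS, 465500 and 451700 after MCF10A EVs and 443700 and 433700 after MDA-MB-231 EVs. The 10 epithelial markers summed to 58.95 to 74.85 normalised reads, with Epcam, Krt18, Krt5 and Esrp1 at 0 reads in all 6 libraries. Cdh1 had 0 reads in both PBS libraries and 2 to 4 in each EV library, around the limit of 3 reads. It was called higher by limma with MDA-MB-231 EVs (adjusted p 0.0177) and with MCF10A EVs (adjusted p 0.0397).

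Replication genes rose with both kinds of EV. The 46 members together took 0.224% and 0.226% of all reads in the PBS libraries, 0.296% and 0.299% after MCF10A EVs and 0.325% and 0.327% after MDA-MB-231 EVs. The 3 groups did not overlap in this share, and the MDA-MB-231 EV libraries were the highest. With MDA-MB-231 EVs, 42 of 46 members were higher than with PBS and 0 were lower (limma, Benjamini-Hochberg adjusted p under 0.05), where 17.9% of all genes tested were called higher. With MCF10A EVs, 40 members were higher and 0 lower, where 17.1% of all genes were called higher. At an unadjusted p under 0.05 from limma 0 members were lower in either comparison as well, and edgeR on the recovered reads called 42 and 40 higher and 0 lower. The median log2 change of the members was 0.43 with MDA-MB-231 EVs and 0.38 with MCF10A EVs, and the median over all genes tested was 0.01 and 0.00. Both comparisons use the same PBS libraries and are therefore not independent of each other. Since the RNA is from whole cultures, a larger share of cells in S phase and more RNA per cell cannot be told apart.

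The changes were moderate in size and nearly uniform in direction. In 45 members both MDA-MB-231 EV libraries lay above both PBS libraries, against 34.3% of all genes, and the exception was Orc4. In 44 members both MCF10A EV libraries did so, against 33.0% of all genes. All 4 EV libraries exceeded both PBS libraries in 43 members (23.6% of all genes), and 39 members were called higher in both comparisons (12.1% of all genes). With MDA-MB-231 EVs 11 members were called higher with an estimate of at least 1.5-fold, against 1.94% of all genes. They were Cdc6, Mcm2, Mcm3, Mcm4, Mcm5, Mcm6, Mcm10, Cdc7, Pola1, Prim1 and Dna2. With MCF10A EVs 3 members had such a call and estimate, against 1.03% of all genes, namely Orc1, Cdc6 and Dna2. The calls came from a test for any change, not for this size. With MDA-MB-231 EVs several genes lay near the cut, such as Prim1 at 1.5-fold, Mcm2 at 1.51-fold and, below it, Orc1 at 1.49-fold.

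**Figure D1:**
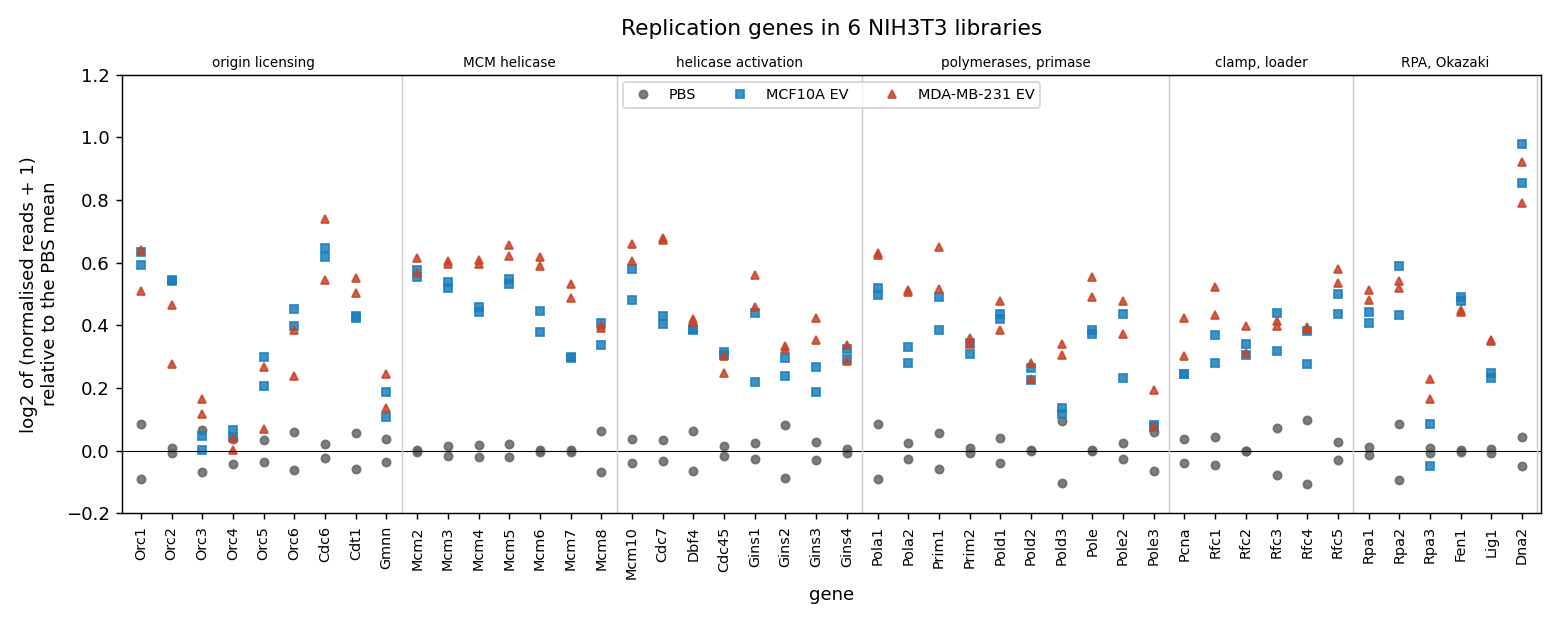
Level of each of the 46 replication genes in each library as the log2 of normalised reads plus 1, relative to the mean of the 2 PBS libraries, grouped by role; circles are PBS, squares MCF10A EV and triangles MDA-MB-231 EV libraries. In 43 genes all 4 EV libraries lie above both PBS libraries; Orc3, Orc4 and Rpa3 are the exceptions, and Dna2 lies highest.

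The promoters of members that moved together were compared by sequence, because E2F factors bind a short word that recurs before replication genes. RefSeq start-site windows of build GRCm38.p6, each 250 bases before to 50 bases after the start, were at hand for 38 of 46 members. Pole, Gins1, Gins2, Gins4, Gmnn, Mcm4, Rfc2 and Prim2 had no such window. The words searched, on both strands, were TTCCCGC, its variant TTCGCGC, the variant TTGCCGC and the variant TTGGCGC. Because TTCGCGC and TTGGCGC end in GCGC, a word on one strand can overlap a word on the other, and each was then counted. At least 1 of these words lay in 25 of the 38 members (65.8%), in 17.4% of the tested genes with a window and in 10.9% of all genes with one. The word CCAAT, read on both strands, lay in 57.9% of the members, 43.2% of the tested genes and 41.1% of all genes. The stretches below lie just upstream of the start and are shown for genes that carry the results: Mcm6, Mcm5 and Pola1 hold several E2F words, Cdc6 holds 1, and Mcm2 and Dna2, which also rose, hold none. Each is written 5′ to 3′ on the gene's own strand, with E2F words in capitals.
Mcm6, chr1:128359706-128359885, minus strand: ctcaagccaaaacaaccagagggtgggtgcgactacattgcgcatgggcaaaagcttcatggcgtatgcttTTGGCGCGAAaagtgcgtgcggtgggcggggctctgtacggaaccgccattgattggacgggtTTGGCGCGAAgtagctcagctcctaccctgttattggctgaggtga
Mcm5, chr8:75109329-75109508, plus strand: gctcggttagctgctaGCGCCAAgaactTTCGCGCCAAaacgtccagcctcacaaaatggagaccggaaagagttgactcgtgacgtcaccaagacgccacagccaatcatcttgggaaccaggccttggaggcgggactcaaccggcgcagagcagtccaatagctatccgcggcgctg
Pola1, chrX:93632156-93632335, minus strand: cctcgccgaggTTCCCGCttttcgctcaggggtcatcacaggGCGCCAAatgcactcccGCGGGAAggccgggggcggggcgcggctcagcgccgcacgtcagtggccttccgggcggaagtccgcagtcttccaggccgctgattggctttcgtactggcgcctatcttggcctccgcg
Cdc6, chr11:98907982-98908150, plus strand: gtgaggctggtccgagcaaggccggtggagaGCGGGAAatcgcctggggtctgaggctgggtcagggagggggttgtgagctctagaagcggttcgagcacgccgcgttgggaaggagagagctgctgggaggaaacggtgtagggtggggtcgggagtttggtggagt
Mcm2, chr6:88898781-88898960, minus strand: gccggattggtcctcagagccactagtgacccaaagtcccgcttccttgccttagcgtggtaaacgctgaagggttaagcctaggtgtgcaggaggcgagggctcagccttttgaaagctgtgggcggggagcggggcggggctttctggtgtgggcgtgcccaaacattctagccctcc
Dna2, chr10:62946849-62947025, plus strand: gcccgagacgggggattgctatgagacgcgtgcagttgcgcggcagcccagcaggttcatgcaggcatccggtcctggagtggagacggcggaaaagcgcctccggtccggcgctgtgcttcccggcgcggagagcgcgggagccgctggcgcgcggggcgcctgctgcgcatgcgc
In Mcm6 the word TTGGCGC starts at positions -109 and -46 from the start site, each time overlapping by its last 4 bases the word TTCGCGC on the other strand, and the words of Mcm5 start at -164, -152 and -149. Of the 7 members not called in at least 1 comparison with PBS, 6 had a window and 5 of these held a word: Orc3, Pole3 and Rpa3 at -40, -48 and -29, Pold3 at 18 and Orc4 at -140 in 1 of its 3 windows. Orc5 held none. For Mcm5 and Mcm6 the last 25 bases of the window were not found in a GENCODE transcript of the gene, so their positions rest on the RefSeq start alone. A match is a run of letters and not a measured binding site, and no match says only that these letters are not in this window.

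Origin licensing genes ranged from a clear rise to almost no change. With MDA-MB-231 EVs 7 of 9 were called higher and with MCF10A EVs 6 of 9, with 0 lower in either. Cdc6, the ATPase that helps place the MCM ring, measured 604 and 586 normalised reads with PBS, 914 and 933 after MCF10A EVs and 868 and 993 after MDA-MB-231 EVs. All 4 EV libraries stood well above PBS, and the EV groups overlapped each other. The rise was 1.55-fold with MCF10A EVs (log2 0.63, 95% interval 0.50 to 0.77) and 1.56-fold with MDA-MB-231 EVs (log2 0.64, 0.51 to 0.78). Orc1, the ORC subunit whose protein rises and falls over the cell cycle in many cells, measured 334 and 296 with PBS, 475 and 489 after MCF10A EVs and 492 and 448 after MDA-MB-231 EVs. It rose 1.53-fold and 1.49-fold, with the EV groups again overlapping. Orc2 and Orc6, also called in both comparisons, rose 1.46-fold and 1.34-fold with MCF10A EVs and 1.29-fold and 1.24-fold with MDA-MB-231 EVs.

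The remaining ORC genes, Orc3, Orc4 and Orc5, changed less. Orc4 measured 985 and 1040 normalised reads with PBS, 1060 and 1044 after MCF10A EVs and 1014 and 1043 after MDA-MB-231 EVs, and was called in neither comparison. Its 95% interval for the log2 change was -0.08 to 0.13 with MDA-MB-231 EVs and -0.05 to 0.16 with MCF10A EVs, so a rise of the size seen in Cdc6 lay outside both. Orc3 measured 1157 and 1056 with PBS, 1108 and 1142 after MCF10A EVs and 1200 and 1240 after MDA-MB-231 EVs. Its MCF10A EV libraries lay between those of PBS, and its MDA-MB-231 EV call, at 1.10-fold with an adjusted p of 0.0459 from limma, was lost in 11 of 17 alternative analyses. Orc5 measured 360 and 343 with PBS, 406 and 433 after MCF10A EVs and 369 and 423 after MDA-MB-231 EVs. It was called with MCF10A EVs at 1.19-fold and not with MDA-MB-231 EVs at 1.12-fold, although all 4 EV libraries exceeded PBS, and the difference between the EV groups did not pass the test (log2 -0.08, 95% interval -0.27 to 0.10). The MCF10A EV call of Orc5 was lost when any 1 of the 4 libraries compared was left out, with adjusted p from limma of 0.0833 to 0.224. Per kb of exon the ORC genes differed in level, from Orc5, the lowest at 57.0 normalised reads per kb with PBS, to Orc6, the highest at 325 per kb. Exon length, here and below, joins all annotated exons of a gene, whether or not these cells use them. It was 6166 bases for Orc5 and 2469 for Orc6, so levels per kb compare different genes only roughly.

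Cdt1, which loads the MCM ring with CDC6, rose with both EVs, and Gmnn, the gene of its inhibitor geminin, was called in 1 comparison. Cdt1 measured 967 and 892 normalised reads with PBS, 1246 and 1253 after MCF10A EVs and 1363 and 1319 after MDA-MB-231 EVs, a rise of 1.35-fold and 1.44-fold. The groups did not overlap in Cdt1. Gmnn measured 654 and 622 with PBS, 727 and 687 after MCF10A EVs and 702 and 757 after MDA-MB-231 EVs. It was called at 1.14-fold with MDA-MB-231 EVs and was not called at 1.11-fold with MCF10A EVs, and the first call was lost when any 1 library compared was left out (adjusted p from limma 0.0516 to 0.21). The ratio of Cdt1 to Gmnn normalised reads was 1.48 and 1.43 with PBS, 1.71 and 1.82 after MCF10A EVs and 1.94 and 1.74 after MDA-MB-231 EVs. Both PBS ratios were below all 4 EV ratios, and the EV groups overlapped. This ratio was chosen after the values were seen and was not tested.

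All 7 MCM genes rose with both EVs. With MDA-MB-231 EVs the 6 subunits of the replicative helicase rose from 1.42-fold for Mcm7 to 1.56-fold for Mcm5. Mcm5 measured 2284 and 2350 normalised reads with PBS, 3349 and 3392 after MCF10A EVs and 3568 and 3655 after MDA-MB-231 EVs. Mcm3 measured 3279 and 3205 with PBS, 4648 and 4705 after MCF10A EVs and 4931 and 4899 after MDA-MB-231 EVs. Mcm2 measured 1878 and 1887 with PBS, 2764 and 2806 after MCF10A EVs and 2881 and 2792 after MDA-MB-231 EVs. In each of these genes PBS stood far below both EV groups, and in Mcm2 the EV groups overlapped. The folds over PBS with MDA-MB-231 EVs were 1.51 for Mcm2, 1.52 for Mcm3, Mcm4 and Mcm6, 1.56 for Mcm5 and 1.42 for Mcm7. With MCF10A EVs the spread was wider, from 1.48-fold for Mcm2 and 1.45-fold for Mcm5 to 1.33-fold for Mcm6 and 1.23-fold for Mcm7. All adjusted p from limma for these 6 genes were at most 5.4e-06.

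Mcm8 is not part of the replicative ring; its protein acts with MCM9 in recombination and repair. It measured 308 and 281 normalised reads with PBS, 372 and 391 after MCF10A EVs and 387 and 389 after MDA-MB-231 EVs, a rise of 1.30-fold and 1.32-fold. Its partner Mcm9, from the list of accessory genes, was not called in either comparison (log2 0.08 with MDA-MB-231 EVs and 0.04 with MCF10A EVs). Per kb of exon, Mcm2 had the lowest level among the 6 ring subunits and Mcm4 the highest in every group. The highest level was 3.97 times the lowest with PBS, 3.66 times with MCF10A EVs and 4 times with MDA-MB-231 EVs. The joined exon length was 6956 bases for Mcm2 and 3589 for Mcm4, so these ratios depend on the annotation.

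**Figure D2:**
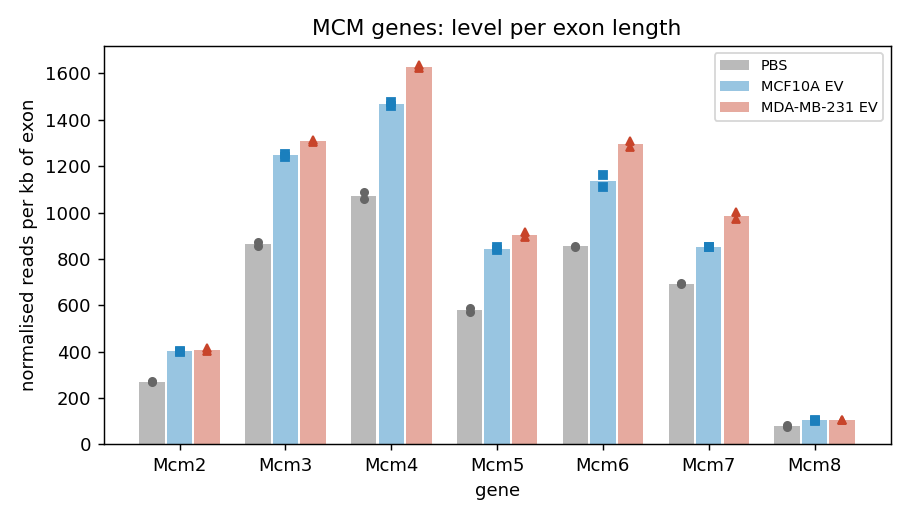
Level of the 7 MCM genes as normalised reads per kb of annotated exon; bars are the mean of the 2 libraries of a group and markers the single libraries. In every gene both EV groups stand above PBS, Mcm4 is the highest and Mcm8 the lowest, and the MDA-MB-231 EV bar exceeds the MCF10A EV bar by the most in Mcm4, Mcm6 and Mcm7.

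All 8 genes of helicase activation were higher with both EVs. Cdc7, the kinase that with its activator DBF4 phosphorylates the loaded MCM ring, measured 536 and 512 normalised reads with PBS, 707 and 694 after MCF10A EVs and 835 and 839 after MDA-MB-231 EVs. Its 3 groups did not overlap, and it rose 1.34-fold with MCF10A EVs and 1.60-fold with MDA-MB-231 EVs. Its activator Dbf4 rose 1.31-fold and 1.34-fold. Mcm10, which is needed for the assembled helicase to start unwinding, measured 697 and 661 with PBS, 947 and 1016 after MCF10A EVs and 1033 and 1073 after MDA-MB-231 EVs, a rise of 1.45-fold and 1.55-fold. Cdc45, a subunit of the active helicase, had the smallest mean of the 2 changes in this group. It measured 1518 and 1485 with PBS, 1868 and 1856 after MCF10A EVs and 1785 and 1853 after MDA-MB-231 EVs, a rise of 1.24-fold and 1.21-fold.

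The 4 GINS genes, whose products complete the active helicase, rose by less than Cdc7 and Mcm10. Gins1 measured 261 and 270 normalised reads with PBS, 360 and 310 after MCF10A EVs and 366 and 392 after MDA-MB-231 EVs, a rise of 1.26-fold and 1.42-fold. Gins2, Gins3 and Gins4 rose 1.21-fold, 1.17-fold and 1.24-fold with MCF10A EVs and 1.26-fold, 1.31-fold and 1.24-fold with MDA-MB-231 EVs. In the MCF10A EV comparison the calls of Gins1, Gins2 and Gins3 were lost when PBS replicate 1 was left out, with adjusted p from limma of 0.121, 0.111 and 0.0958, and they were also lost without MCF10A EV replicate 1 (0.165, 0.0904 and 0.0746). Without PBS replicate 2 those of Gins1 and Gins3 were lost (0.0804 and 0.181), and without MCF10A EV replicate 2 that of Gins3 (0.203). The Gins3 call with MCF10A EVs, at an adjusted p of 0.042 from limma, was kept in only 6 of 17 alternative analyses. It was lost among others with TMM scaling (0.0508) and with DESeq2 (0.242). The MCF10A EV calls of Gins1 and Gins2 were also lost with DESeq2 (adjusted p 0.081 and 0.067) and in limma without a variance trend (0.0908 and 0.0799). Gins2 shares 2758 exon bases with Gse1 on the opposite strand, and whether reads were counted by strand is not given in the sources used here, so its values may include reads of that gene.

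Of the 10 polymerase genes, 9 were higher with MDA-MB-231 EVs and 8 with MCF10A EVs. The polymerase alpha and primase complex, which makes the RNA-DNA primers of both strands, moved as a whole, with all 4 genes called in both comparisons. Pola1, its catalytic subunit, measured 966 and 1090 normalised reads with PBS, 1453 and 1473 after MCF10A EVs and 1585 and 1592 after MDA-MB-231 EVs, a rise of 1.43-fold and 1.55-fold. Prim1, the primase catalytic subunit, measured 534 and 493 with PBS, 670 and 722 after MCF10A EVs and 735 and 807 after MDA-MB-231 EVs, a rise of 1.36-fold and 1.5-fold. The groups did not overlap in either gene. Pola2 measured 1373 and 1421 with PBS, 1696 and 1758 after MCF10A EVs and 1987 and 1993 after MDA-MB-231 EVs, and Prim2 rose 1.25-fold and 1.28-fold. Per kb of exon the highest of the 4 genes stood at 1.44, 1.26 and 1.43 times the lowest in the PBS, MCF10A EV and MDA-MB-231 EV groups. These ratios depend on the joined exon lengths, such as 8294 bases for Pola2 and 3868 for Prim1.

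For polymerase epsilon, the leading strand polymerase, the catalytic gene rose and the small subunit gene Pole3 was not called. Pole measured 1311 and 1314 normalised reads with PBS, 1701 and 1713 after MCF10A EVs and 1929 and 1845 after MDA-MB-231 EVs, a rise of 1.30-fold and 1.44-fold with 3 separate groups. Pole2 rose 1.26-fold and 1.34-fold. Pole4, a further subunit gene from the list of accessory genes, was called higher with MCF10A EVs at 1.27-fold (adjusted p 0.00259 from limma). With MDA-MB-231 EVs, at 1.14-fold, Pole4 was not called by limma (adjusted p 0.0682) and was called by edgeR (0.0278). Pole3, a small histone-fold subunit also found in a chromatin remodelling complex, measured 443 and 483 with PBS, 490 and 487 after MCF10A EVs and 489 and 529 after MDA-MB-231 EVs. It was called in neither comparison, with 95% intervals of the log2 change from -0.08 to 0.24 with MCF10A EVs and -0.02 to 0.29 with MDA-MB-231 EVs.

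Among polymerase delta genes the 3 members rose with 1 or both EVs, and Pold4, a subunit gene outside the 46 members, fell. Pold1, the catalytic subunit of this lagging strand polymerase, rose 1.35-fold with either EV, and Pold2 rose 1.19-fold with either EV. Pold3 measured 565 and 492 normalised reads with PBS, 573 and 582 after MCF10A EVs and 654 and 670 after MDA-MB-231 EVs. It was called at 1.26-fold with MDA-MB-231 EVs and not at 1.09-fold with MCF10A EVs, and the difference between the EV groups did not pass the test (log2 0.20, adjusted p 0.071 from limma). Pold4, the smallest subunit, which other work has shown to be degraded as protein when cells enter S phase or suffer DNA damage, was singled out after its values were seen. It measured 1441 and 1412 with PBS, 1037 and 1063 after MCF10A EVs and 994 and 880 after MDA-MB-231 EVs. All 4 EV libraries lay below both PBS libraries, and its log2 level fell by 0.44 with MCF10A EVs (95% interval -0.56 to -0.32) and by 0.61 with MDA-MB-231 EVs (-0.73 to -0.49). Both calls were kept in all 17 alternative analyses. Calls of a lower level covered 14.6% and 16.9% of all genes in these comparisons.

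**Figure D3:**
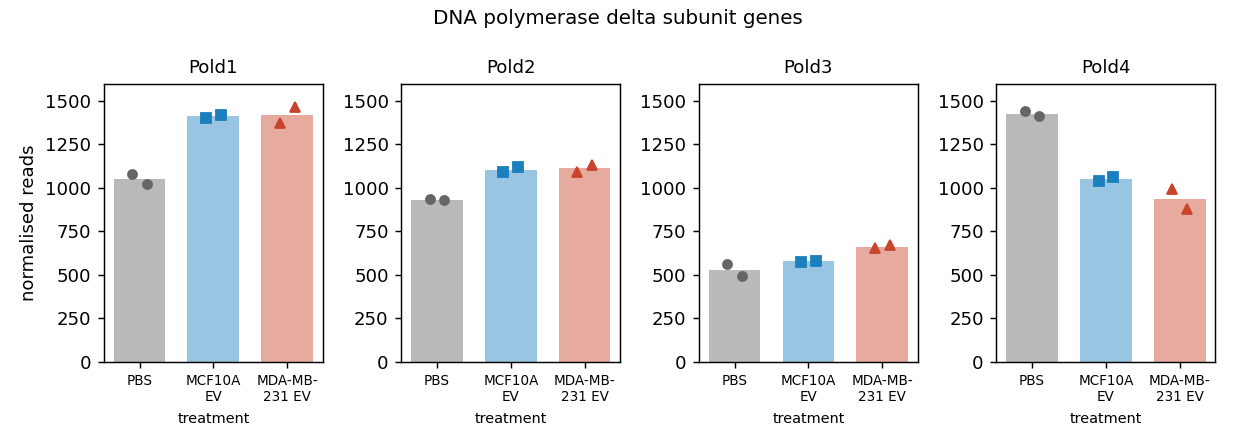
Normalised reads of the 4 DNA polymerase delta subunit genes by treatment; bars are the mean of 2 libraries and markers the single libraries. Pold1 and Pold2 are higher with both EVs, Pold3 is highest in the MDA-MB-231 EV libraries, and Pold4 falls from 1441 and 1412 with PBS to between 880 and 1063 with EVs.

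The clamp and all 5 loader genes were higher with both EVs. Pcna, the ring that tethers polymerases to DNA, measured 3653 and 3853 normalised reads with PBS, 4445 and 4452 after MCF10A EVs and 5039 and 4631 after MDA-MB-231 EVs. Its groups did not overlap, and it had the smallest mean change of this group, at 1.19-fold and 1.29-fold. The annotation lists the processed pseudogenes Pcna-ps1 and Pcna-ps2, between which and Pcna reads could have been split. Rfc5, a small loader subunit, measured 619 and 594 with PBS, 821 and 858 after MCF10A EVs and 879 and 908 after MDA-MB-231 EVs, a rise of 1.38-fold and 1.47-fold that was the largest here. Rfc1, the large loader subunit, measured 1787 and 1899 with PBS, 2238 and 2383 after MCF10A EVs and 2648 and 2487 after MDA-MB-231 EVs, a rise of 1.25-fold and 1.39-fold. Its 3 groups were separate. Rfc3 measured 565 and 626 with PBS, 807 and 743 after MCF10A EVs and 793 and 784 after MDA-MB-231 EVs, with the EV groups overlapping. Rfc2 and Rfc4 rose 1.25-fold and 1.26-fold with MCF10A EVs and 1.28-fold and 1.32-fold with MDA-MB-231 EVs. Rfc5 shares 499 exon bases with Wsb2 and Rfc2 shares 952 with Lat2, both on the opposite strand.

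Among the genes of RPA and Okazaki fragment processing 5 of 6 were higher with each EV, and Dna2 had the largest change of all 46 members. Dna2, a nuclease and helicase that trims long flaps on the lagging strand and resects broken ends, measured 158 and 148 normalised reads with PBS, 304 and 278 after MCF10A EVs and 266 and 292 after MDA-MB-231 EVs. It rose 1.89-fold with MCF10A EVs (log2 0.92, 95% interval 0.70 to 1.14) and 1.81-fold with MDA-MB-231 EVs (log2 0.86, 0.64 to 1.08). The EV groups overlapped, and it was the lowest member by normalised reads with PBS. Fen1, the nuclease that cuts short flaps, measured 1495 and 1501 with PBS, 2086 and 2107 after MCF10A EVs and 2035 and 2046 after MDA-MB-231 EVs, a rise of log2 0.48 and 0.45. Fen1 shares 1909 exon bases with the antisense gene Gm10143, whose reads cannot be told apart from its own without strand. Lig1, the ligase that seals the fragments, measured 2757 and 2735 with PBS, 3263 and 3228 after MCF10A EVs and 3507 and 3501 after MDA-MB-231 EVs, a smaller rise of 1.18-fold and 1.28-fold with 3 separate groups.

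Of the 3 subunits of RPA, which coats single-stranded DNA, 2 rose with both EVs. Rpa2 measured 530 and 468 normalised reads with PBS, 675 and 751 after MCF10A EVs and 727 and 715 after MDA-MB-231 EVs, a rise of 1.43-fold and 1.45-fold. Rpa1, the large subunit, rose 1.34-fold and 1.41-fold. Rpa3, the smallest subunit, measured 299 and 295 with PBS, 315 and 287 after MCF10A EVs and 333 and 348 after MDA-MB-231 EVs. The MCF10A EV libraries lay on either side of PBS, and Rpa3 was called in neither comparison, with 95% intervals of the log2 change from -0.17 to 0.21 with MCF10A EVs and 0.01 to 0.38 with MDA-MB-231 EVs.

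Which libraries entered decided a few of the calls against PBS. With MDA-MB-231 EVs, leaving out MDA-MB-231 EV replicate 1 ended the calls of Orc6, Gins2, Pold3 and Pole2, with adjusted p from limma of 0.0566, 0.0531, 0.0517 and 0.0523. Leaving out MDA-MB-231 EV replicate 2 ended those of Pold3 (0.0685) and Rfc4 (0.0507). With MCF10A EVs, the call of Pole2 ended on leaving out PBS replicate 1, PBS replicate 2 or MCF10A EV replicate 2 (0.082, 0.0512 and 0.0922), and that of Rfc4 without PBS replicate 1 or MCF10A EV replicate 2 (0.0848 and 0.0827). In all of these cases the gene stayed higher with EVs. Scaled by library totals, Orc5, Pole3 and Rpa3 were also called higher with MDA-MB-231 EVs, with adjusted p from limma of 0.0477, 0.042 and 0.0279.

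Between the EV sources the difference was small and partly beyond the spread of the libraries. In the direct comparison 8 of 46 members were higher with MDA-MB-231 EVs and 0 lower, where 6.84% of all genes were called higher and 10.1% lower. Both MDA-MB-231 EV libraries lay above both MCF10A EV libraries in 25 members, against 27.2% of all genes. The median log2 difference of the members was 0.07, against 0.00 over all genes. The 8 were Mcm4, Mcm6, Mcm7, Cdc7, Pola2, Pole, Rfc1 and Lig1. Mcm7 measured 3059 and 3073 normalised reads with PBS, 3765 and 3776 after MCF10A EVs and 4436 and 4300 after MDA-MB-231 EVs. Mcm6 measured 3974 and 3990 with PBS, 5181 and 5431 after MCF10A EVs and 6112 and 5992 after MDA-MB-231 EVs. Mcm4 measured 3801 and 3903 with PBS, 5293 and 5234 after MCF10A EVs and 5875 and 5824 after MDA-MB-231 EVs. In these ring subunits the 3 groups did not overlap, and MDA-MB-231 EVs exceeded MCF10A EVs by 1.16-fold, 1.14-fold and 1.11-fold. The largest difference was that of Cdc7, at 1.19-fold (log2 0.26, 95% interval 0.13 to 0.38), followed by Mcm7 (log2 0.21, 0.14 to 0.28) and Pola2 (log2 0.20, 0.12 to 0.29).

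These 8 calls were less stable than those against PBS. Leaving out MCF10A EV replicate 1 or 2 left 3 and 4 calls, and leaving out MDA-MB-231 EV replicate 1 or 2 left 2 and 2, of which 1 without MDA-MB-231 EV replicate 1 was Orc2, lower. Limma without a variance trend called 0 members (9 higher and 0 lower at an unadjusted p under 0.05), scaling by library totals called 15, and edgeR on the recovered reads called 11 higher and 1 lower. The calls of Cdc7, Pole, Rfc1 and Lig1 were lost when any 1 of these 4 libraries was left out, for Cdc7 with adjusted p from limma of 0.05 to 0.0887. That of Pola2 was lost in each case but MCF10A EV replicate 2, that of Mcm4 without either MDA-MB-231 EV replicate, and that of Mcm6 without MDA-MB-231 EV replicate 1. Mcm7 kept its call in every one of these settings except limma without trend, where its adjusted p was 0.0727. The change against PBS was larger with MDA-MB-231 EVs in 38 members and with MCF10A EVs in 8, namely Orc1, Orc2, Orc4, Orc5, Orc6, Cdc45, Fen1 and Dna2. Over all genes tested the median log2 difference between the EVs was -6e-04. The count of members includes differences near 0, such as log2 0.0018 for Gins4 and 0.0037 for Pold1, and was not tested. Orc2 had the lowest difference, at log2 -0.17 (95% interval -0.30 to -0.05, adjusted p 0.0617 from limma), and measured 752 and 744 normalised reads with PBS, 1093 and 1089 after MCF10A EVs and 1033 and 906 after MDA-MB-231 EVs. Its exons share 1150 bases with Nif3l1 on the opposite strand.

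**Figure D4:**
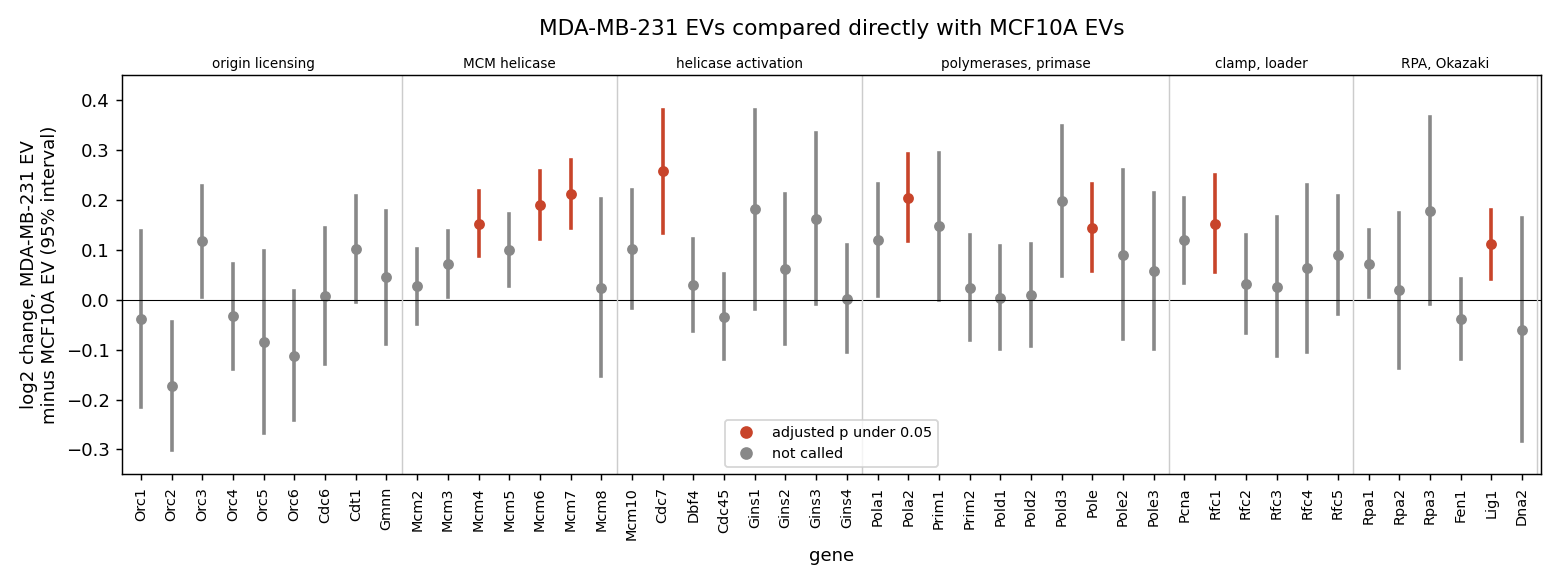
Log2 difference between MDA-MB-231 EV and MCF10A EV libraries for each of the 46 replication genes with its 95% interval from limma; red marks the 8 genes with an adjusted p under 0.05. The MCM genes all lie at or above 0, Cdc7 is the highest at 0.26 and Orc2 the lowest at -0.17.

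Most genes that work beside this machinery also rose. Of 32 further genes of origin firing, fork protection and chromatin assembly, 26 were higher and 2 lower with MDA-MB-231 EVs, and 27 were higher and 2 lower with MCF10A EVs. Over all genes tested, 17.9% and 17.1% were called higher and 16.9% and 14.6% lower. The median log2 change of the 32 was 0.43 and 0.34. Dscc1, a subunit of an alternative clamp loader, measured 112 and 136 normalised reads with PBS, 178 and 171 after MCF10A EVs and 251 and 212 after MDA-MB-231 EVs, a rise of 1.41-fold and 1.86-fold. Hells, a chromatin remodeller, rose 1.52-fold and 1.55-fold, and Atad5, which unloads PCNA from DNA, rose 1.48-fold and 1.60-fold. The 2 lower genes were Pold4, described above, and Top1, the topoisomerase that relaxes DNA ahead of forks and transcription. Top1 measured 5706 and 6003 with PBS, 5403 and 5303 after MCF10A EVs and 5018 and 4925 after MDA-MB-231 EVs, and its log2 level fell by 0.13 and by 0.24. The MCF10A EV call of Top1 ended when PBS replicate 2 or MCF10A EV replicate 2 was left out, at log2 -0.09 and -0.12. It was also lost in limma without a variance trend (adjusted p 0.123). In the direct comparison of the EVs 6.84% of all genes were called higher with MDA-MB-231 EVs and 10.1% lower. Of the 32, 4 were called higher there (Wdhd1, Chaf1a, Uhrf1 and Dnmt1) and 1, Top1, lower. Leaving out MDA-MB-231 EV replicate 2 left 0 of these calls, and leaving out either MCF10A EV replicate left 2.

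Polymerases and factors with roles outside the S phase fork were measured as well. Of 7 genes of translesion synthesis, which copies damaged DNA, 2 were higher with MDA-MB-231 EVs and 3 with MCF10A EVs, where 17.9% and 17.1% of all genes were called higher, with a median log2 change of 0.11 and 0.19. Polh, a polymerase that bypasses ultraviolet damage, rose 1.38-fold and 1.20-fold. Rev3l was called at 1.32-fold with MDA-MB-231 EVs and not called at 1.10-fold with MCF10A EVs. Poli, at 1.32-fold and 1.15-fold, was called in neither comparison, and Rev1 stood at 1.01-fold in both and was not called. Of 9 measured genes of mitochondrial DNA replication 4 and 5 were higher and 0 lower, with a median log2 change of 0.20 and 0.21. Among them Top1mt rose 1.21-fold with MDA-MB-231 EVs and 1.30-fold with MCF10A EVs, and Peo1 rose 1.22-fold and 1.21-fold. Polg2, at 1.27-fold and 1.16-fold, was called in neither comparison. Polg, the mitochondrial DNA polymerase, rose 1.20-fold with MDA-MB-231 EVs and 1.15-fold with MCF10A EVs. E2F words lay in the windows, before or after the start, of 15 of 27 accessory genes (55.6%) and 2 of 8 mitochondrial ones (25%). Whether these lists differ from the 46 members was not tested.

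Other measures moved with the replication genes. All 8 markers of dividing cells, most of them from G2 and mitosis, were called higher with both EVs. Of all genes, 17.9% were called higher with MDA-MB-231 EVs and 17.1% with MCF10A EVs. In the direct comparison 6 of the 8 were higher with MDA-MB-231 than with MCF10A EVs, against 6.84% of all genes. Mki67 rose 1.24-fold with MCF10A EVs and 1.41-fold with MDA-MB-231 EVs, and Bub1b, a spindle checkpoint kinase, rose 1.19-fold and 1.54-fold. Of the 14 fibroblast markers, 9 were lower and 1, Col3a1, was higher in each comparison with PBS. Calls of a lower level covered 16.9% of all genes with MDA-MB-231 EVs and 14.6% with MCF10A EVs. The 8 measured leukocyte markers summed to 3142 and 3036 normalised reads with PBS, 1833 and 1780 after MCF10A EVs and 1059 and 993 after MDA-MB-231 EVs, nearly all from Cd14, while Emr1 and Cd3e were at 0 in all libraries and Ptprc had 1 read in all. The 10 endothelial markers summed to 364 and 356 with PBS, 345 and 297 after MCF10A EVs and 195 and 158 after MDA-MB-231 EVs, with Emcn and Erg at 0 throughout. Nearly all of that sum was Cdh5, the only one called lower, with MDA-MB-231 EVs, whereas Esam, at 1.11 to 8.49 normalised reads, was called higher with both EVs. The part of these levels in the rise of the replication genes was not tested.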

How the data were processed

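RNA of 6 NIH3T3 samples (2 with PBS, 2 with MCF10A EVs, 2 with MDA-MB-231 EVs) was sequenced after a stranded mRNA library protocol, per the labels' protocols. TopHat2 and edgeR are named in the submitters' processing notes, which give hg19, a human build, although the table's rows are mouse genes; the build and annotation used for counting, the counting tool and its use of strand were not stated (not given in the sources used here). The deposited table holds a signal per gene, read counts that the authors adjusted to a common library size. Whole reads were recovered from all 122850 deposited values by inverting edgeR's quantile adjustment with a common dispersion of 0.000591 (relative tolerance 1e-06), and give the library totals. Intervals and floors cover counting error only where they rest on reads.

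Limma 3.58.1 (R 4.3.3, variance trend, 3 residual and 11.5 prior degrees of freedom) was fitted to log2(value + 1) over all 6 libraries for 15025 rows that had 1 or more normalised reads in 2 or more libraries, and p-values were adjusted by Benjamini-Hochberg over all of them. Fold changes are on this log2(value + 1) scale, which understates changes of low genes; intervals are 95%. The members and lists were chosen with earlier results of these data known. Values in every library are given for the 3 largest and the 1 smallest mean change in each role, for members not called against PBS and for members called between the EVs; of other lists the 3 largest were to be named, and others named were chosen after their values were seen. Replicates differed by more than counting noise (chi-square per degree of freedom 1.63, 2.24 and 1.83). The scripts were tested on simulated data. Alternatives used edgeR 4.0.16 and DESeq2 1.42.0 on the recovered reads, other scalings, pseudocounts of 0.5 and 5, other filters, and fits without each library. Promoter windows are from RefSeq (GRCm38.p6), exon lengths and overlaps from GENCODE; the last 25 bases of 40 of 47 member windows were found in a GENCODE transcript of the gene.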

Additional observations from a re-analysis of the deposited data

How the results depend on the processing

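Against PBS, the count of replication genes called stayed within 36 to 45 (42 as reported) with MDA-MB-231 EVs and 33 to 40 (40 as reported) with MCF10A EVs over 17 alternatives, with 0 called lower in any. The median log2 change with MDA-MB-231 EVs was 0.49 when scaled by library totals, which moved the median of all genes to 0.07, and 0.42 with DESeq2 size factors, and ranged from 0.43 to 0.46 when 1 library was left out. With MCF10A EVs it was 0.40 with library totals, 0.37 with TMM, 0.36 with DESeq2 size factors and with DESeq2, 0.35 with quantile normalisation, and 0.33 to 0.39 when 1 library was left out. Between the EVs, the 8 calls became 15 with library totals, 0 without the variance trend, 5 with DESeq2, 5 with only these groups fitted and 2 to 4 when 1 library was left out; the median of 0.07 became 0.11 with library totals, 0.092 with quantile normalisation and 0.0622 to 0.076 without 1 library. The 5 accessory calls between the EVs became 11 with library totals, 10 with the 5 CPM filter and 10 with edgeR. They became 2 with DESeq2, 3 with only these groups fitted and 0 without the trend. Fewer were left when 1 library was left out, and Top1 lost its call in each of these fits. Without MDA-MB-231 EV replicate 1 the lower call was Pold4, which was not among the 5. Its log2 difference there was -0.25, and that of Top1 was -0.12. Fewer libraries and smaller fits leave fewer degrees of freedom; for the other settings the cause was not tested. No direction of a called replication gene reversed.

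Same-numbered libraries showed no shared deviation, with correlations over 10214 genes of -0.004, 0.011 and 0.021. Such values cannot tell whether the samples were handled in pairs, and no label says so. With the replicate number as a block, 41, 39 and 8 replication genes and 29, 27 and 6 accessory genes were called in the MDA-MB-231 EV, MCF10A EV and direct comparisons, with medians of 0.43, 0.38 and 0.07. With 2 libraries a group, members of few reads had the widest intervals, for Dna2 log2 0.64 to 1.08 against 0.54 to 0.67 for Mcm4 (MDA-MB-231 EV against PBS).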
